A study of Mus musculus with 6 samples.

Results

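Potassium channel genes were followed through lists of splicing and transcript-end events made from RNA sequencing of NAc tissue (nucleus accumbens, the part of the ventral striatum tied to reward) from adult male C57BL/6N mice. The members were the 94 protein-coding genes of the GENCODE M21 mouse annotation whose symbol starts with Kcn, of which 83 were listed in at least 1 library. Over all genes, 16154 were listed. The mice had been trained in conditioned place preference (CPP), in which an animal learns to link a compartment with an injection. The morphine group (3 libraries) received morphine, an opioid agonist, and the saline group (3 libraries) received saline. Both groups were of the same inbred strain. The series description counts more mice than libraries in each group, but a legend in the study reads as if every library came from a single mouse. Whether tissue was pooled cannot be told from these sources, and p-values measure only the spread between these libraries. The comparison asked how transcripts of the NAc differ after morphine CPP training.

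Potassium channels let potassium leave the cell, which brings the membrane back to rest after a spike and sets how easily the next one follows. Voltage-gated, calcium- or sodium-activated, inward-rectifier and two-pore-domain channels form the pore, and auxiliary subunits change its gating and its transport to the membrane. G-protein-gated inward rectifiers of the Kcnj family open downstream of opioid receptors, and many channel genes make several proteins from 1 gene by alternative splicing.

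Each library came with 1 list, and its entries, called events here, mark where 2 assembled transcripts of 1 gene part ways, or where a transcript starts or ends. The 4 families of events were exon skipping (a single exon or a block of exons included or left out), intron retention, alternative exon ends, and transcript starts and ends. The lists held 132823 distinct events, of which 576 lay in potassium channel genes. They give whether an event was assembled in a library, with no level of either form and no read depth, so absence from a list does not show absence from the tissue. A library listed between 54660 and 62209 events over all genes, and saline 1 and morphine 1 listed the most retained introns of their groups (7925 and 9534). The striatal projection neuron markers (9 of 9) and the markers of astrocytes (5 of 5), oligodendrocytes (5 of 5), microglia (4 of 4) and cortical projection neurons (3 of 3) were listed in all 6 libraries, as were 2 of 3 markers of the choroid plexus.

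A set of exons skipped in all 6 libraries is shown first, because these are coding stretches by which assembled transcripts of channel genes differed in this tissue. Capitals mark the skipped exon, and the 10 lower-case bases on each side belong to the neighbouring exons of the same transcript. All are coding sequence of GENCODE M21 transcripts on GRCm38, written 5′ to 3′ on the strand of the gene. They come from channels opened by an ion inside the cell, from the Kv4 system and from a Kv1 subunit. Kcnma1 encodes the large-conductance calcium-activated (BK) channel (chromosome 14, minus strand), Kcnt1 the sodium-activated channel Slack (chromosome 2, plus strand), and Kcnd3 the A-type channel Kv4.3 (chromosome 3, plus strand). Kcnip1 encodes a calcium-binding subunit of Kv4 channels (chromosome 11, minus strand), and Kcnab2 a cytoplasmic beta subunit of Kv1 channels (chromosome 4, minus strand).
Kcnma1 29 nt exon, chr14:23306725-23306753: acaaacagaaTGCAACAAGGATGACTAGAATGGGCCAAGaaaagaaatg
Kcnma1 81 nt exon, chr14:23336040-23336120: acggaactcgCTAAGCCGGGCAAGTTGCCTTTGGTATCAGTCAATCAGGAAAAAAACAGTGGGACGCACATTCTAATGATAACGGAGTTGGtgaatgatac
Kcnt1 42 nt exon, chr2:25882196-25882237: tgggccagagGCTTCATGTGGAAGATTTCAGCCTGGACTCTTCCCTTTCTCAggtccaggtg
Kcnt1 63 nt exon, chr2:25912655-25912717: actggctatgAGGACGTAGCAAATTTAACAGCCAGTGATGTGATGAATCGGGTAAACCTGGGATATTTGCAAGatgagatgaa
Kcnd3 57 nt exon, chr3:105666962-105667018: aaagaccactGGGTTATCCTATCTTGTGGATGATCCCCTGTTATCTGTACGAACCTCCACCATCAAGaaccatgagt
Kcnip1 33 nt exon, chr11:33651540-33651572: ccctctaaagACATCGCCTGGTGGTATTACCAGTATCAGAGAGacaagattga
Kcnab2 42 nt exon, chr4:152434782-152434823: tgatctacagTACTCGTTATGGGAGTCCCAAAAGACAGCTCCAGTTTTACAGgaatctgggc

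Kcnip2, which encodes another calcium-binding subunit of Kv4 channels (chromosome 19, minus strand), is shown because it held the only intron of a member listed as retained in every morphine and no saline library. Its exons carry alternative boundaries 4 nt apart, so the 100 nt exon is the 96 nt exon with 4 more bases.
Kcnip2 100 nt exon, chr19:45797087-45797186: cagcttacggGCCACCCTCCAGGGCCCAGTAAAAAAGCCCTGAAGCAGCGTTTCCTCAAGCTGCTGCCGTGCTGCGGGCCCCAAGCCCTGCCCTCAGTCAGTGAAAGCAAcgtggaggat
Kcnip2 96 nt exon, chr19:45797091-45797186: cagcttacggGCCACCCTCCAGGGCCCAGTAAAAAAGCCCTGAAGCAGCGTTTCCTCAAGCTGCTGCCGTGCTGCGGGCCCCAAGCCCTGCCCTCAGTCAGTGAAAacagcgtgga
Kcnip2 54 nt exon, chr19:45796279-45796332: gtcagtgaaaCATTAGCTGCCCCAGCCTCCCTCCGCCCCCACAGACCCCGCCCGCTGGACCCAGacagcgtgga
The 54 nt exon was 74.1% G and C. In transcripts without it, the 100 nt form is followed by a next exon that starts 4 nt later than after the 96 nt form, so the joined stretch is 221 nt with either pair of boundaries, and the joined sequences differ at 2 bases.

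Most potassium channel genes were listed in both groups. Of the 94 genes, 73 were listed in all 6 libraries, 10 in some and 11 in none. Entries on either strand counted as a listing, and 41 events in 19 genes lay on the strand opposite to their gene. In morphine 2, for example, Kcnj10 and Kcnk1 were listed by such entries alone. Without these entries, a mean of 77.7 genes was listed in the saline and 75.7 in the morphine group. The libraries listed 77, 79 and 80 of them in the saline group and 76, 80 and 77 in the morphine group. The groups overlapped (two-sided exact permutation test, p = 0.8, where 3 against 3 libraries cannot go below 0.1). The genes listed in none were Kcna7, Kcna10, Kcne1, Kcne1l, Kcnf1, Kcnj1, Kcnj15, Kcnk16, Kcnk18, Kcnmb3 and Kcnv2. Of these, Kcne1l and Kcnf1 have single-exon transcripts only in the annotation, a kind of gene of which 135 of 1344 protein-coding genes were listed.

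The 10 genes listed in some libraries were mostly auxiliary subunits and two-pore-domain channels. Kcne4, an auxiliary subunit, was missing from saline 1 alone, and Kcnj13, an inward rectifier, from morphine 3 alone. Kcnmb1, the BK channel subunit beta 1, and Kcnk5 were listed in 4 libraries, as was Kcnn4, an intermediate-conductance calcium-activated channel. Kcnk7 was listed in saline 1, saline 2 and morphine 2. Kcne2 and Kcnk15 appeared in saline 3 alone. Kcne3 appeared in morphine 2 alone, and its 2 entries there both lay on the strand opposite to the gene. Kcnrg, which encodes a regulator of channel assembly, was the one member listed in all 3 saline libraries and in no morphine library. That is 1.20% of the 83 listed members, against 0.099% of all listed genes, and it rests on 1 gene.

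The total number of potassium channel events was higher in every morphine library than in any saline library, and over all genes the lists held 54660 to 58195 events in the saline and 56882 to 62209 in the morphine group. The saline libraries held 283, 269 and 264 events and the morphine libraries 286, 293 and 284, a mean of 272 ± 9.85 (SD, n = 3) against 287.7 ± 4.73 (SD, n = 3). The groups did not overlap, and the closest pair, saline 1 and morphine 3, was 1 event apart. They overlapped when events on the strand opposite to their gene were left out (difference 11.7 events) and when an event was identified by all its coordinates (difference 14.7 events), each with p = 0.3 by the exact permutation test. The difference of 15.7 events had the smallest p of the exact permutation test (p = 0.1, 0.6 after Benjamini-Hochberg adjustment over 6 such values). Per 1000 events of the library, the means were 4.80 in the saline and 4.81 in the morphine group, and without Kcnip2 the difference in number fell to 11.3 (exact permutation test, p = 0.3).

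**Figure D1:**
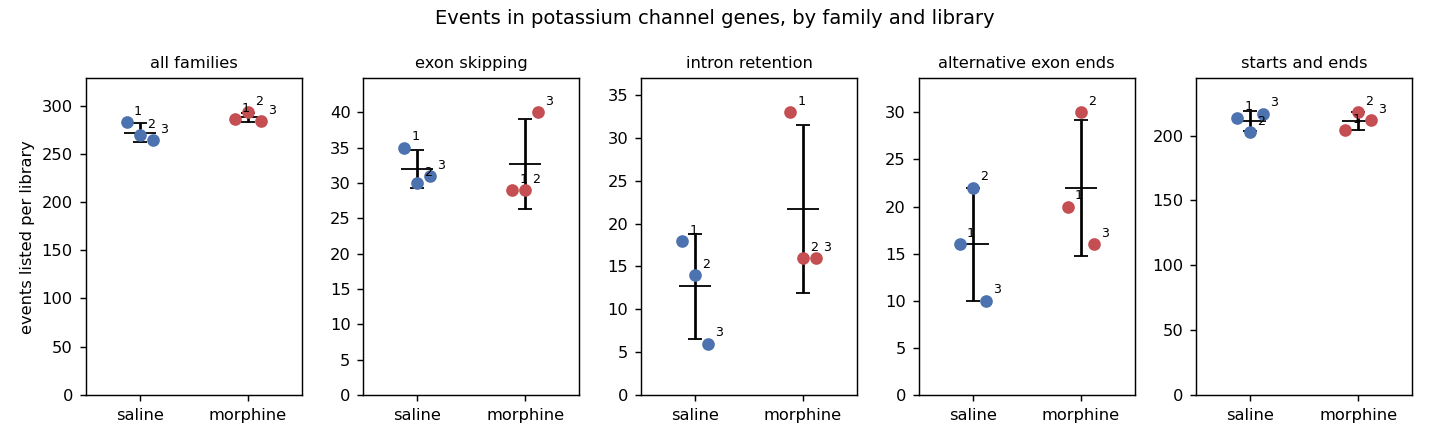
Number of events listed in potassium channel genes in each library (vertical axis, from 0) for all families together and for each of the 4 families. Points are single libraries numbered by replicate, horizontal bars the group mean and error bars the SD (n = 3), and the groups are apart for all families together, with 264 to 283 events in the saline and 284 to 293 in the morphine libraries, while they overlap in each single family.

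No single family of events separated the groups. Exon skipping was listed 35, 30 and 31 times in the saline and 29, 29 and 40 times in the morphine libraries (exact permutation test, p = 1). Intron retention was listed 18, 14 and 6 times against 33, 16 and 16 times (exact permutation test, p = 0.4). Alternative exon ends, with each form of an exon counted, were listed 16, 22 and 10 times against 20, 30 and 16 times (exact permutation test, p = 0.5). Transcript starts and ends had the same mean in both groups, 211.3. Without morphine 1 the difference in intron retention fell from 9 to 3.33 events, and without morphine 2 that in alternative exon ends fell from 6 to 2. In intron retention, morphine 1 stood above the other libraries, as it did over all genes, and whether its longer list accounts for its value here was not tested.

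A few genes held a large share of the splicing differences. Leaving transcript starts and ends aside, 37 of the 83 listed genes had at least 1 event and 46 had none. Kcnt1, Kcnip2, Kcnma1 and Kcnt2 together made up 42.6% of these listings. Exon skipping occurred in 26 genes, intron retention in 19 and alternative exon ends in 15. At the other end, 15 genes had 1 transcript start and 1 transcript end in every library and nothing else, among them Kcna1, which encodes Kv1.1, and Kcnj2, which encodes the inward rectifier Kir2.1.

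**Figure D2:**
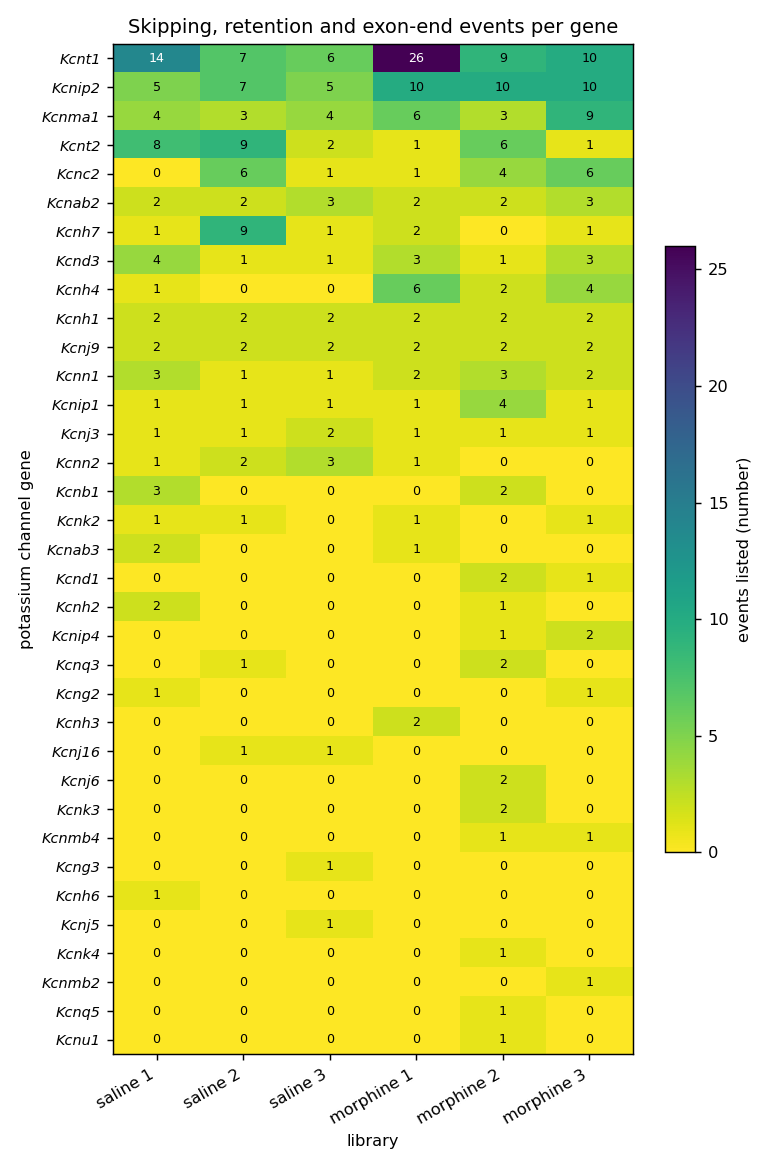
Number of skipping, retention and exon-end events (colour and printed number) for 35 of the 37 potassium channel genes with at least 1 such event (rows) in each library (columns). Kcnip2 had 5 to 7 in the saline and 10 in each morphine library, and Kcnt1 ranged from 6 to 26.

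Among the voltage-gated pore-forming genes (30 members, 28 listed, all 28 in every library), repeatable differences included skipped exons and alternative exon ends. Kcnd3 included or left out its 57 nt exon in all 6 libraries. Kcnh1, an ether-à-go-go channel, was listed in all 6 libraries with 393 and 474 nt forms of an exon, the longer one with 81 nt more at its donor side. Kcnc2, which encodes Kv3.2, skipped a 104 nt exon in every library but saline 1. Kcnh7, an Erg-type channel, skipped a 21 nt exon in every library but morphine 2.

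Kcnh4, an ether-à-go-go-like channel, was 1 of 3 genes with counts that did not overlap and were higher in the morphine group. That is 3.61% of the 83 listed members, against 1.80% of all listed genes. It was listed with 4, 3 and 2 events in the saline libraries and with 11, 5 and 7 in the morphine libraries. The events behind this were not the same ones: no Kcnh4 event was in all 3 morphine libraries and absent from the saline group. Morphine 1 and morphine 3 shared a skipped 244 nt exon and a retained 378 nt intron, neither of which morphine 2 listed. They also shared 158 and 780 nt exon forms of the same stretch, which thus entered the count several times. A transcript start in morphine 1 lay on the strand opposite to the gene.

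The genes classed by symbol (Kcnma, Kcnn, Kcnt and Kcnu) as calcium- or sodium-activated had the most splicing events for their number. The 8 genes, all listed, held 71 events other than starts and ends, against 63 in the 30 voltage-gated genes, and 8 of the 71 were in all 6 libraries. Most of the 71 came from few genes, with 36 in Kcnt1, 14 in Kcnt2 and 11 in Kcnma1, while Kcnn3 and Kcnn4 had 0. Kcnu1, placed in this class by its symbol alone, had 1. Kcnma1 was listed with 9, 6 and 8 events in the saline and 9, 7 and 13 in the morphine group. Its 29 and 81 nt exons were included or left out in all 6 libraries. The length of the 29 nt exon is not a multiple of 3. It is exon 28 of 29 in its transcript, and the next exon was listed with boundaries 3 nt apart. Kcnn1, which encodes a small-conductance calcium-activated channel, skipped a 111 nt coding exon in all 6 libraries.

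Kcnt1 had the widest range of any member. It was listed with 17, 10 and 9 events in the saline and 32, 12 and 14 in the morphine group, and the groups overlapped (exact permutation test, p = 0.5). Without morphine 1 the difference between the groups fell from 7.33 to 1 event. Retention of single introns accounted for 10 of its events, out of 36 in all members. Intron 4 (1990 nt) and intron 25 (287 nt) were listed as retained in all 6 libraries, and they were the only retained introns of any member that were. Introns 5 and 17 were listed as retained in morphine 1 alone. Kcnt2, which encodes the related channel Slick, was listed with 13, 15 and 4 events against 4, 8 and 5, and it skipped a 21 nt exon in every library but morphine 3.

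**Figure D3:**
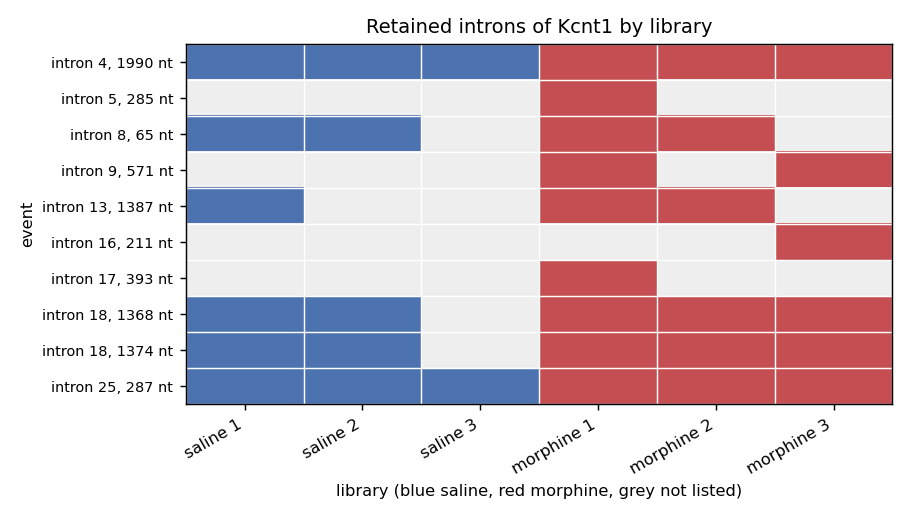
Retained introns of Kcnt1 (rows, by intron number in the reference transcript and length in nt) in each library (columns), with a filled cell where the intron was listed as retained. Introns 4 and 25 are filled in all 6 libraries, and saline 3 lists no other retained intron.

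Auxiliary subunits were the one class of genes whose summed counts were apart. The voltage-gated class missed this only by a tie at 108, with 108, 105 and 95 events against 110, 108 and 110. The 17 auxiliary subunit genes had 37, 40 and 40 events in the saline and 43, 51 and 47 in the morphine libraries. Without Kcnip2 these were 29, 30 and 32 against 30, 38 and 34, and the groups overlapped. The auxiliary class was thus not apart without that 1 gene.

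Kcnip2 was listed with 8, 10 and 8 events in the saline and 13, 13 and 13 in the morphine libraries, and the groups did not overlap. The difference of 4.33 events had the smallest p that the exact permutation test allows (p = 0.1). Counts that do not overlap in 3 against 3 libraries always give this p, so it adds nothing to that rule. The difference stayed between 4 and 5 when each library was left out, on the same values by which the gene was named. Transcript starts at 2 places, a skipped block of the 54 and 96 nt exons, and the skipped 54 and 100 nt exons with shifted boundaries were in all 6 libraries. The groups were apart in the stretch between the 96 nt exon and the next shared exon of 125 nt. An unannotated exon of 1607 nt, which runs through this stretch (chr19:45795580-45797186), was listed in saline 2 and in all 3 morphine libraries. An exon of 908 nt, which keeps the upstream part of it (chr19:45796279-45797186) and is in transcript Kcnip2-204, was listed in saline 1, saline 3 and all 3 morphine libraries.

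Each saline library thus held 1 of these long exons and each morphine library both. A 574 nt intron (chr19:45795704-45796279, given by the exon bases on its sides) was listed as retained in all 3 morphine libraries and in no saline library, the only such event in the 73 members listed in all 6 libraries. In its entries the retained form was the 1607 nt exon and the spliced form joined the 125 nt exon to the 908 nt exon, so the listing needs both long exons in 1 library. Both long exons were also found in saline libraries, each without the other. The retained 758 nt intron was listed in every library but saline 2, and the retained 1386 nt intron in saline 2 and the morphine libraries. The 125 and 1607 nt exon forms and the retained run of introns were listed in the same libraries as the 1386 nt intron. The same long exon thus entered the count of Kcnip2 events several times, and the difference in counts is not one of separate splicing differences.

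**Figure D4:**
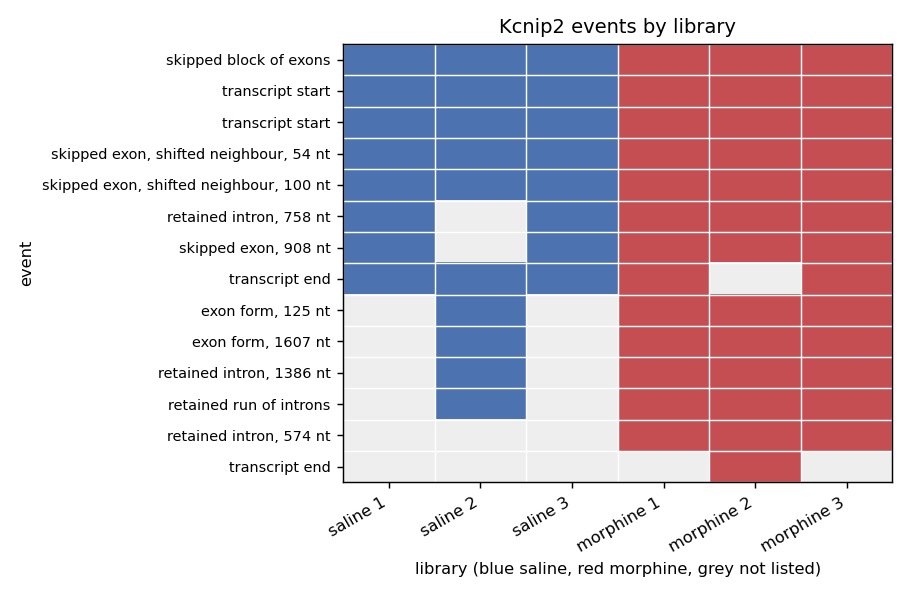
Events of Kcnip2 (rows, with length in nt for exons and introns) in each library (columns), with a filled cell where the event was listed. The retained 574 nt intron is filled in the 3 morphine libraries alone, and saline 2 differs from the other saline libraries in 6 of the 14 events.

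The BK channel subunits and Kcnrg gave the remaining differences. Kcnmb2, BK subunit beta 2, was listed with 2 events in each saline and 3 in each morphine library. The additional event was another one in each morphine library: a transcript end in morphine 1, a transcript start in morphine 2 and a skipped block of exons in morphine 3. Kcnmb1 had a transcript end whose last exon began at chr11:33970095 in all 3 morphine libraries and in no saline library. This gene lies within Kcnip1 on the opposite strand. Kcnmb1 was listed in 1 saline library, saline 2, with an end at chr11:33966190. Kcnrg was listed with 2, 3 and 2 events in the saline libraries, and a first exon ending at chr14:61608072 and a last exon beginning at chr14:61611652 were in all 3 of them. In the morphine libraries it had none, while Trim13, the neighbouring gene upstream on the same strand, was listed in all 6 libraries.

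The members' counts stood beside the following shares over all genes. Of all events, 0.381% were in all 3 morphine libraries and in no saline library, and of the members' events 2 of 576 (0.347%) were. In the opposite direction the shares were 0.277% of all events and 2 of 576 members' events (0.347%). Of all listed genes, 0.248% were in all 3 morphine and no saline library, and of the members 0 of 83 were. The reverse held for 0.099% of all listed genes and for 1 of 83 members (1.20%), Kcnrg. Counts per gene did not overlap, with the morphine group above, in 1.80% of all genes and in 3 of 83 members (3.61%), which were Kcnip2, Kcnh4 and Kcnmb2. With the saline group above, they did not overlap in 0.966% of all genes and in 1 of 83 members (1.20%), Kcnrg. The member shares above those of all genes rest on 1 to 3 genes or 2 events. Leaving out any single library raised the members' events found in every library of one group and none of the other from 4 to between 7 and 14. The share over all events was not computed for these smaller sets.

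Among inward rectifiers (15 genes, 13 listed), splicing differences were few, at 9 events. The G-protein-gated members, named for their place downstream of opioid receptors, were all listed in every library. Kcnj9, which encodes GIRK3, was listed with 5, 5 and 5 events in the saline and 5, 5 and 4 in the morphine group, and had 101 and 131 nt forms of an untranslated exon in all 6 libraries. Kcnj3, which encodes GIRK1, was listed with 4, 4 and 4 against 3, 4 and 3 events, and skipped a 217 nt coding exon in every library but morphine 2. Kcnj6, which encodes GIRK2, was listed with 3, 4 and 3 against 3, 5 and 3 events, and was the only member with 2 transcript ends in all 6 libraries. Kcnj5, which encodes GIRK4, was listed with 2, 2 and 3 against 3, 2 and 3 events. In all 4 genes the groups overlapped.

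Two-pore-domain channels, which carry the leak current at rest, and silent modifier subunits, which form channels only with other subunits, had few splicing events. The 14 two-pore-domain genes held 4 splicing events and the 10 silent subunits 3, none of them in all 6 libraries. Kcnk10, which encodes the leak channel TREK2, had 3 transcript starts in all 6 libraries, more than any other member. The other genes with at least 2 such starts were Kcna2, Kcnc2, Kcnh2, Kcnip2, Kcnip4 and Kcnk2.

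The exons skipped in all 6 libraries were short, and most had a length that is a multiple of 3. Single exons skipped between neighbours with equal boundaries in both forms numbered 41 in 23 genes, and 12 exons in 8 genes were in all 6 libraries. All 12 were annotated, with a median length of 55.5 nt, and 11 of 12 (91.7%) had a length that is a multiple of 3, all but the 29 nt exon of Kcnma1. With the class of shifted neighbouring boundaries added, which holds the 54 and 100 nt exons of Kcnip2, there were 14 exons in 9 genes, and 12 of 14 were multiples of 3. For equal boundaries in all other genes this share was 69.5% of 2123 exons. Exons listed in fewer libraries showed no steady trend. Of the 8 exons of members in 4 or 5 libraries, 3 (37.5%) were multiples of 3, with a median length of 111 nt and a longest of 908 nt. In 2 or 3 libraries, 6 of 8 (75%) were multiples of 3. Of the 13 exons of members listed in 1 library, 8 (61.5%) were multiples of 3, against 40.9% in other genes. These shares are descriptions of the lists, without a test. By family, 28.6% of members' skipping events were in all 6 libraries, against 19.7% over all genes, and 3.70% of members' intron retention events against 1.70%. For alternative exon ends the shares were 13.8% and 9.09%, and for transcript starts and ends they were 26.2% in members and 29.8% over all genes.

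**Figure D5:**
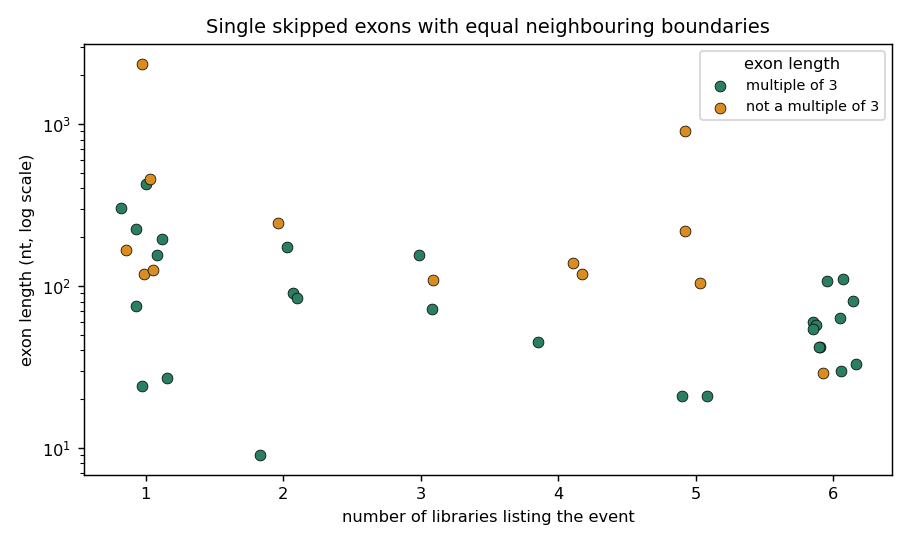
Length of each of the 41 single exons of potassium channel genes skipped between neighbours with equal boundaries, without the class of shifted boundaries (vertical axis, nt, log scale) against the number of libraries that listed it (horizontal axis, points spread sideways), coloured by whether the length is a multiple of 3. The 12 such exons in all 6 libraries lie between 29 and 111 nt, and 1 of them, in Kcnma1, is not a multiple of 3.

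Per listed gene, potassium channels had fewer skipping events than calcium and sodium channels, and fewer intron retention events than these or all other genes. All other genes were every other listed gene of any type, while the members are protein-coding only. Events were divided by the number of listed genes and were not scaled to the exons or introns of each gene. Whether the gene sets differ per exon or per intron was not tested. For skipping, the mean over libraries was 0.414 ± 0.0606 (SD, n = 6) events per listed potassium channel gene and 0.408 ± 0.0119 per other gene, higher in 2 of 6 libraries (paired exact sign-flip permutation test, adjusted p = 0.844 over 4 comparisons). Calcium and sodium channel genes had 0.742 ± 0.107, and potassium channels were lower in 6 of 6 libraries (paired exact permutation test, adjusted p = 0.0417). For retention, potassium channels had 0.221 ± 0.118 events per listed gene, other genes 0.482 ± 0.112 and calcium and sodium channels 1.85 ± 0.708. Potassium channels were lower in 6 of 6 libraries in both comparisons (paired exact permutation test, adjusted p = 0.0417 each). Before adjustment each such p is 0.03125, the smallest that the paired exact permutation test gives with 6 libraries. Any difference of the same direction in every library gives it, and the libraries share the same genes.

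Genes whose proteins bind or anchor potassium channels were listed in most libraries. Of 24 such genes, 21 were listed in all 6 libraries. By the rules used above, 0 of 24 had counts that did not overlap, which over all genes was the case in 1.80% and 0.966% by direction. Of their 233 events, 0 were in all libraries of one group and none of the other. Over all events the shares were 0.381% (morphine only) and 0.277% (saline only). The share of all genes with such an event was not computed. With so few genes and events, these counts of 0 are not read as a result about the partner genes. Hcn3, a hyperpolarization-activated cation channel, was listed with 7, 3 and 10 events in the saline and 20, 15 and 8 in the morphine group, and the groups overlapped. Repeatable skipping was confined among them to 3 scaffold or surface genes: Adam22 with 9 events in all 6 libraries, Ank3, which anchors channels at the axon initial segment, with 7, and Dlg1 with 3.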

How the data were processed

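The processed data were 1 event list per library. Per the study's methods, reads were mapped with HISAT2 and transcripts were assembled with StringTie. The program that wrote the lists, the genome build and the annotation release were not given in the sources used here. The deposited start and end positions, event type and gene identifier of each entry were used. The column that the file headers call FPKM held only 0 and negative whole numbers, a score of unknown meaning as deposited by the authors, and was not used. The authors' table of differential lncRNA transcripts, which holds their fold changes and p-values, was not used either.

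The paired entries of a skipping or retention event (included and skipped, or retained and spliced form) were counted as 1, which turned 20 event types into 12 classes in 4 families. Alternative exon ends had no such pairs, so each form of an exon was counted as an event. The same stretch could also be counted in more than 1 class, as was the 29 nt exon of Kcnma1, with equal and with shifted neighbouring boundaries. Event counts are thus counts of list entries and not of separate splicing differences. Entries of 2 libraries were the same event if class, gene, strand and exon or intron boundaries were equal (for starts and ends, the splice-side boundary). Gene identifiers were joined to GENCODE M21 on GRCm38 (99.4% found in each library). Groups were compared on counts by an exact permutation test (two-sided) with Benjamini-Hochberg adjustment, and gene sets by paired exact sign-flip permutation tests over the 6 libraries. The code was tested on simulated lists. Python 3.11.15, numpy 2.4.6, pandas 2.3.3 and scipy 1.17.1 were used.

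The members and lists were chosen with earlier results of these data known. Named were the 10 genes with most events, genes with group-specific events or non-overlapping counts, genes with a splicing event in all 6 libraries, and genes listed in some libraries. The G-protein-gated inward rectifiers, and genes named as further examples, were added after their values were seen. Alternatives were other event identities, strand and scaffold filters, scaling to list length, genes listed in all 6 libraries, and leaving out libraries. Depth per library was not analysed here, so no counting interval was given. Results for 2 members are not reported here by name, although these genes are part of the counts over all members.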

Additional observations from a re-analysis of the deposited data

How the results depend on the processing

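Lists made by assembly depend on depth, which was not analysed here, and 3 libraries against 3 allow no p under 0.1. The number of group-specific potassium channel events was 4 in all, 1 among genes listed in all 6 libraries, 7 to 14 when each library was left out, and 14 without saline 1 and morphine 1, an alternative chosen after seeing the data. Fewer libraries make the rule easier to meet. Genes with non-overlapping counts numbered 4, 5 to 8 with a library left out, and 15 without saline 1 and morphine 1. The shares over all genes and events were not computed for fewer libraries, so these higher counts have no reference and are not read as results about the members. The difference in exon skipping between the groups, 0.667 events, became -0.0393 per 1000 skipping events and ranged from -3 to 2.5 with a library left out. The difference in skipping per gene between potassium channels and other genes, 0.00608, became -0.00685 among genes listed in all 6 libraries and ranged from -0.0164 to 0.0187. With 5 libraries the paired test cannot go below 0.0625, so the other gene set comparisons lost their call while keeping their direction: skipping against calcium and sodium channels ranged from -0.349 to -0.292, retention against other genes from -0.273 to -0.248, and retention against calcium and sodium channels from -1.75 to -1.46. No paired analysis of the groups was possible because the labels number no replicates, and the numbers used here, given in accession order, pair no libraries.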
